A study of Homo sapiens with 9 samples.

Results

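Replication-dependent histone genes encode the bulk histones that package DNA as it is copied. They were taken here as every row of the count table whose Ensembl ID maps to the linker histone genes H1-1 to H1-6 or to a numbered H2AC, H2BC, H3C or H4C symbol, without pseudogenes. That rule found 67 genes among the 60708 rows, namely 6 for H1, 15 for H2A, 18 for H2B, 13 for H3 and 15 for H4. A further 2 symbols that the rule would take, H2AC18 and H2AC19, had no row under the ID given for them in the name table and were not analysed here. The recovery group held 3 libraries of MDA-MB-231 cells given 10 nM pladienolide B (PdB) for 16 h and collected 24 h after its removal. The PdB group held 3 libraries collected at the end of the 16 h, and the DMSO group 3 libraries of cells given the solvent. The labels do not say how long the DMSO cells were treated or when they were collected. Time in culture therefore cannot be told apart from treatment in the comparisons with DMSO. MDA-MB-231 is a human triple-negative breast cancer line, and PdB is a macrolide that binds the SF3B complex and blocks splicing. The labels do not say that replicates were separate cultures, so p-values measure only the spread between these libraries, which may be technical.

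Histone genes of this class are transcribed in S phase under the co-activator NPAT, and most have no intron. Their mRNAs normally end a few bases past a conserved stem-loop instead of in a poly(A) tail: SLBP binds the stem-loop, the U7 snRNP pairs downstream of it, and the transcript is cut between them. SLBP then helps translation, and the mRNAs are degraded quickly when DNA synthesis stops. Some of the genes can also give polyadenylated transcripts from signals further downstream. The libraries were made from polyadenylated RNA, so the values below describe the histone transcripts found in such libraries, and transcripts without a tail were not measured separately. In bulk RNA, fewer cells in S phase and less histone RNA per cell cannot be told apart.

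The stem-loops are shown because they define how the mRNAs of these genes end. In GENCODE 29 transcripts (GRCh38), a stem-loop pattern with the usual stem bases was found after the stop codon of 29 members. The search left the 4 loop bases free and did not require the arms of the stem to pair. These were 87.9% of the 33 members with annotated bases past the stop, against 0.119% of 19380 other protein-coding genes. The members were searched over all annotated bases past the stop and the other genes over the next 100 bases, each on the transcript strand. The stem is in lower case below and the 4 loop bases are in capitals.
15 members, among them H2AC6, H2BC6, H2BC15 and H2BC21: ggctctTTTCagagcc
5 members, all H4, among them H4C8 and H4C11: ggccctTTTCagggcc
4 members, among them H2BC4 and H2BC5: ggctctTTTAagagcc
3 members, all H4, among them H4C9: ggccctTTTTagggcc
H3C6: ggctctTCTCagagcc
H2AC11: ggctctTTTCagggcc
The stem of the H4 genes thus differed from that of most H2A, H2B and H3 genes at its middle base pair. The stem-loop began 22 to 56 bases past the stop codon, with a median of 35. The annotated transcripts ran 6 to 1917 bases further, with a median of 1059, and 23 of the 29 ran over 100 bases past it, 11 of them members that could be tested and 12 not. A further 32 members, H2BC12 and H1-2 among them, have no annotated bases past the stop codon in that release, so no end could be looked up.

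The stretch before the start is shown for the H2B genes that were called in any comparison and for H1-2, from the RefSeq promoter table (GRCh38.p14). Each is 120 bases long, ends at the base before the start and is written on the strand of the gene. Capitals mark the H2B octamer ATTTGCAT, which the factor Oct-1 can bind, and the TATA motif TATAAA.
H2BC12, chr6:27146859-27146978, minus strand: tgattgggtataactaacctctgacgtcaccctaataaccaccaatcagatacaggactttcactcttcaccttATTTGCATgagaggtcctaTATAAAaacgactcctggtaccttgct
H2BC21, chr1:149886683-149886802, minus strand: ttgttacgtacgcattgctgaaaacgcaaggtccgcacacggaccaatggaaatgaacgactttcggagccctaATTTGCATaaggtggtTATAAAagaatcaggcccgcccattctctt
H2BC6, chr6:26183641-26183760, plus strand: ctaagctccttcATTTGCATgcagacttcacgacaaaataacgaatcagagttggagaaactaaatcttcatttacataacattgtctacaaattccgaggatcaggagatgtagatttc
H2BC4, chr6:26123927-26124046, minus strand: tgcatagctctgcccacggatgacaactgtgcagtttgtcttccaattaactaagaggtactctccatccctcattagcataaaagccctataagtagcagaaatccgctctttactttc
H2BC15, chr6:27838449-27838568, plus strand: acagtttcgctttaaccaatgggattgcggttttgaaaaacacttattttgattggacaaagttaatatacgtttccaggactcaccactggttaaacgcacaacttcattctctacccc
H1-2, chr6:26056471-26056590, minus strand: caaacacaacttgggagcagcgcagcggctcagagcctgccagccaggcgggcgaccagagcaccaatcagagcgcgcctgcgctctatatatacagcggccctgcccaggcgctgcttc
H2BC12 and H2BC21 thus held the octamer starting 46 bases before the start, with a TATA motif downstream of it. In the whole RefSeq windows of 300 bases around the start, searched on both strands, the octamer stood in 26 of 62 members with a promoter in the table (41.9%), against 1.80% of the promoters of all 27305 genes in the table. By family it stood in 78.6% of H2A, 77.8% of H2B and 9.09% of H3 promoters and in 0 of 6 H1 and 0 of 13 H4 promoters. TATAAA stood in 64.5% of members and 12% of all promoters. The motif CCAAT stood in 83.9% of members and 35.7% of all promoters, in every H1, H2A, H2B and H3 promoter of the table but in 23.1% of those of H4. No motif is part of another. The octamer stood in 12 of 28 members tested below and in 14 of 34 members with too few counts to test, and no relation between motif and change was tested.

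Library totals ran from 56389689 to 67047079 counts. CPM are read counts scaled to a fixed library size after TMM normalisation, whose factors were 1.02 to 1.03 in DMSO, 0.883 to 0.923 in PdB and 1.08 to 1.09 at recovery. Changes are log2 changes ± SE, and adjusted p-values are from edgeR's quasi-likelihood test with Benjamini-Hochberg adjustment over all 20812 genes tested. A gene was called at an adjusted p under 0.05, and n was 3 libraries per group. The 3 mesenchymal markers of MDA-MB-231 (VIM, CD44 and ZEB1) summed to 1880.0 to 1900.0 CPM at recovery, 3020.0 to 3250.0 CPM in PdB and 3920.0 to 4030.0 CPM in DMSO, and all 3 fell against DMSO in both groups. Of 6 luminal and receptor genes, ESR1, the oestrogen receptor, had 0 counts in every library, and the 6 summed to 99 to 101 CPM at recovery, 103 to 105 CPM in PdB and 120 to 131 CPM in DMSO. Against DMSO, GATA3 rose and ERBB2 fell in both groups, and at recovery CDH1 rose and EPCAM fell. The 4 leukocyte markers summed to at most 1.13 CPM in any library, with no call against DMSO (0 also at an unadjusted p under 0.05). Of 3 fibroblast markers, PDGFRB fell in PdB and LUM rose at recovery, and they summed to 6.05 to 8.77 CPM at recovery, 1.15 to 3.48 CPM in PdB and 5.67 to 9.66 CPM in DMSO. The part of such shifts in the histone values was not tested.

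Histone counts were few and concentrated in a handful of genes. The 67 members held 45648 counts over the 9 libraries. H2BC12, an H2B gene of the chromosome 6 cluster, held 43.3% of them, the linker histone gene H1-2 held 18.7%, the H2A gene H2AC6 held 7.08%, H2BC5 held 4.62% and H2BC21, an H2B gene on chromosome 1, held 2.74%. Of the 67, 31 passed the filter on low counts, 14 had at least 1 count but did not pass, and 22 had 0 counts in all 9 libraries. Members just inside and just outside the filter were alike, with a lowest mean of 7.44 counts among those tested (H4C12) and a highest of 6.89 among those not tested (H3C13). The 31 tested members had a median of 44.7 counts per library, against 535 for all genes tested. Since a member can pass through the group in which it is high, counts over the tested members below are descriptions only. The same holds for the p-values of members just inside the filter, such as H4C11 and H4C12.

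Levels per length could be set side by side for the 9 tested members whose versioned ID is that of GENCODE 29. H2BC5 was highest, at 3.93, 5.07 and 4.11 CPM per kb of exon at recovery, in PdB and in DMSO. H2BC4 followed with 2.53, 1.33 and 1.57 CPM per kb. H2BC21 had 1.41, 1.19 and 0.506 CPM per kb. H2AC11 had 0.556, 1.00 and 0.818 CPM per kb, and H4C16 on chromosome 12, the lowest at recovery and in PdB, had 0.117, 0.0749 and 0.199 CPM per kb. In DMSO H2BC18 was lowest, at 0.146 CPM per kb. H2BC5 and H2BC4 were first and second in every group mean, whereas H2BC21 was behind H2AC11 and H2AC13 in DMSO. H2BC12 and H1-2, which lead by CPM, could not be placed on this scale.

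Counts were spread unevenly along the clusters. Of the members, 53 lie on chromosome 6, 11 on chromosome 1 and 1 on chromosome 12 in that annotation, and H3C2 and H3C3 are not in it. Along chromosome 6, 15 neighbouring members from H4C4 to H2BC10 (GRCh38, 26188765 to 26273356, 84592 bases) held 5 counts in all 9 libraries together, all of them in H2BC8. The members on either side, H2BC6 and H4C8, held 519 and 687 counts. The stretch includes genes of all 5 families, among them the linker histone gene H1-3. A shorter stretch from H2AC16 to H4C13 (27865355 to 27873510), with H1-5 and H3C11 in it, held 2 counts, next to H2AC15 with 112 and H3C12 with 613. Another stretch, from H2AC1 to H1-1 at the near end of the cluster, held 3 counts. Within these stretches no library held more than 4 counts of any member. How reads that map to several copies were counted is not given in the sources used here. The copies are close: 14 of 15 H4 genes encode 1 protein and 8 of the 11 H3 genes with a known sequence share 1, but only 6 members share their whole coding sequence with another, namely H3C14 with H3C15, H4C11 with H4C12 and H4C14 with H4C15. The part of read assignment in these low values was not tested.

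**Figure D1:**
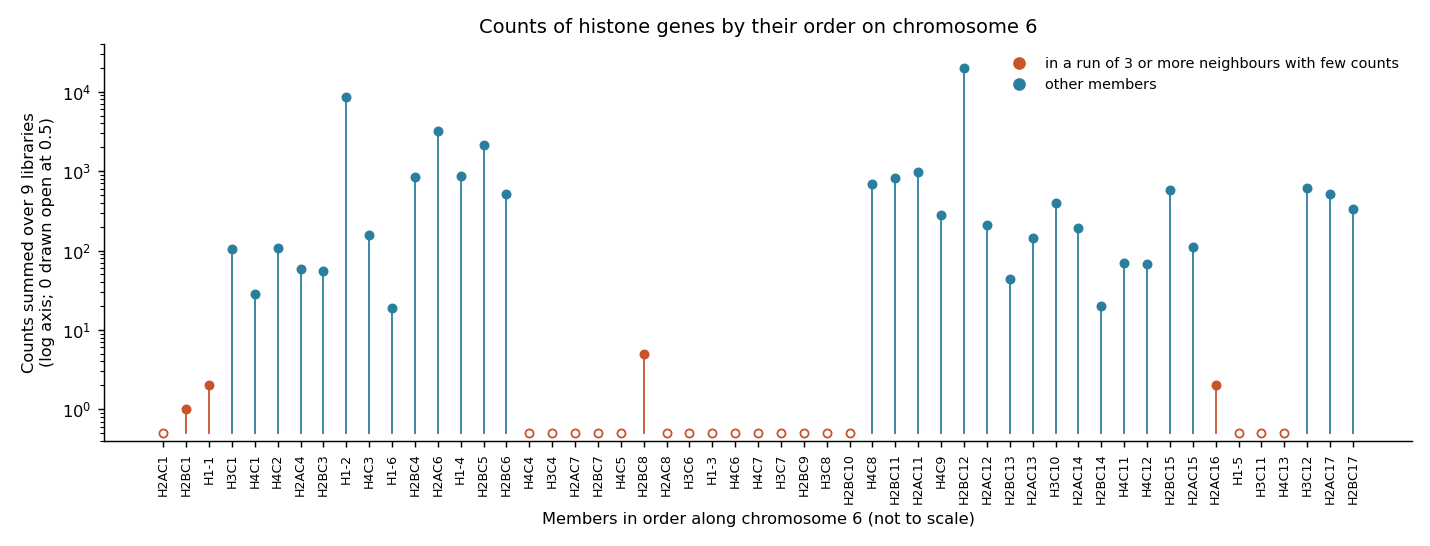
Counts summed over the 9 libraries (vertical log axis) for the 53 members on chromosome 6 in their order along it, not to scale; open circles at 0.5 are genes with 0 counts, and red marks runs of at least 3 neighbours with at most 4 counts in any library. The run of 15 members from H4C4 to H2BC10 held 5 counts, between H2BC6 with 519 and H4C8 with 687.

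On average, histone transcripts made up more of the recovery and PdB libraries than of the DMSO libraries. The 67 members summed to 100.0, 92.3 and 98.2 CPM at recovery, to 81.1, 76.4 and 101 CPM in PdB and to 57.2, 56.2 and 77.7 CPM in DMSO. The recovery libraries all stood above the DMSO libraries, whereas PdB and DMSO overlapped through the third DMSO library. Means were 96.8 ± 4.03 CPM at recovery, 86.2 ± 13.1 CPM in PdB and 63.7 ± 12.1 CPM in DMSO (SD, n = 3 each), a ratio of 1.52 at recovery and 1.35 in PdB over DMSO. The third DMSO library and the third PdB library were each the highest of their group. They were also the highest of their groups for RNAs without a poly(A) tail, described below. Without them the sums averaged 78.8 CPM in PdB and 56.7 CPM in DMSO. With library totals in place of TMM the sums were 105 CPM at recovery, 77.7 CPM in PdB and 65.5 CPM in DMSO, an alternative chosen after the data were seen.

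The family sums did not move alike, though no difference between families was tested. H2B sums were 59.6 ± 4.27 CPM at recovery, 48.9 ± 6.88 CPM in PdB and 35.5 ± 7.44 CPM in DMSO. The linker histone sums were 19.8 ± 0.643 CPM at recovery, 18.6 ± 5.54 CPM in PdB and 12.9 ± 2.78 CPM in DMSO. H2A sums lay close together, at 9.83 ± 0.316 CPM at recovery, 11.4 ± 1.47 CPM in PdB and 10.2 ± 1.33 CPM in DMSO. H3 sums were 4.03 ± 0.620, 4.95 ± 0.878 and 2.67 ± 0.603 CPM and H4 sums 3.70 ± 0.525, 2.48 ± 0.541 and 2.32 ± 0.514 CPM in the same order of groups. H2BC12 carried much of the H2B sum, and without it the members summed to 51.5 ± 2.10 CPM at recovery, 51.2 ± 8.68 CPM in PdB and 37.6 ± 7.03 CPM in DMSO. Other sums also leaned on single genes. The H1 genes held 20.7% of all member counts, with 18.7% in H1-2, and the H2A genes held 12.7%, with 7.08% in H2AC6. Depth differed as well, with a median of 29.8 counts per library for the tested H2A genes and 91.6 for the tested H2B genes.

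PdB was set against DMSO to see which histone genes differed while the drug was present. Of the 31 members tested, 7 rose and 0 fell: H1-2, H2BC12, H2BC21, H2BC6, H3C12, H3C3 and H4C11. Across all genes tested 70.1% were called, 32.0% up and 38.2% down, so the share of members that rose (22.6%) was below that of all genes while none fell. The 7 called were also the members with an unadjusted p under 0.05, and DESeq2 called 9 up and 0 down. The median log2 change was 0.50 over the tested members and -0.11 over all genes. H4C11, at 0 in DMSO, enters these medians at a fitted value that depends on the prior count, and at its bound it would lie on the same side of them. By family, 1 of 2 H1, 0 of 8 H2A, 3 of 9 H2B, 2 of 5 H3 and 1 of 7 H4 genes rose. With library totals, which moved the median of all genes to -0.31, only H2BC21, H2BC6 and H4C11 were called, and the median of the members was 0.30.

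Linker histone H1-2 binds the DNA entering and leaving the nucleosome. It had 13.2, 15.1 and 21.2 CPM in PdB, against 9.81, 10.4 and 14.2 CPM in DMSO. The groups overlapped, and the change of 0.52 ± 0.15 (adjusted p = 0.0055) was called in 17 of 18 alternatives, all but library totals (adjusted p = 0.084). H1-4 had 1.42, 1.10 and 3.77 CPM in PdB, against 1.07, 1.36 and 1.83 CPM in DMSO, and did not pass the test (0.55 ± 0.39, adjusted p = 0.21). The third PdB library stood far above the rest for that gene.

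Of the core histone genes, 3 of the 6 called in PdB encode H2B. H2BC12 (GRCh38, chromosome 6, 27146418 to 27146798) had 33.5, 31.6 and 40.2 CPM in PdB, against 23.1, 23.1 and 31.9 CPM in DMSO. Its groups overlapped by a little, and its change was 0.43 ± 0.11 (adjusted p = 0.0024), or 0.23 with library totals (adjusted p = 0.094). H2BC21 (chromosome 1, 149884459 to 149886652) had 2.78, 2.26 and 2.81 CPM in PdB, against 1.20, 0.618 and 1.5 CPM in DMSO. Those groups did not overlap, and the change was 1.23 ± 0.30 (adjusted p = 0.0012). H2BC6 (chromosome 6, 26172059 to 26184655) had 1.24, 1.42 and 2.67 CPM in PdB, against 0.513, 0.571 and 0.462 CPM in DMSO, a change of 1.78 ± 0.39 (adjusted p = 0.00057). H2BC6 and H2BC21 were called under all 18 alternatives. H2BC6 overlaps AL353759.1 on the other strand in the annotation, and the use of strand in counting is not given in the sources used here.

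Calls among H3 and H4 genes rested on few reads. H3C12 had 1.70, 0.941 and 2.23 CPM in PdB, against 0.864, 0.951 and 0.939 CPM in DMSO (0.82 ± 0.35, adjusted p = 0.043), and its call was lost in 12 of 18 alternatives, among them leaving out any library but the second PdB one. It shares exon bases with the H2A gene H2AC17. H3C3 had 1.42, 1.67 and 0.865 CPM in PdB, against 0.469, 0.222 and 1.16 CPM in DMSO (1.09 ± 0.46, adjusted p = 0.045), lost in 10 of 18, among them leaving out any library but the third of PdB or the third of DMSO. Neither gene's groups were apart. H4C11 had 29, 0 and 1 counts in PdB and 0 in each DMSO library, so its call (adjusted p = 0.011) rested on the first PdB library and ended without it. Among the most abundant members without a call, H2AC6 had 4.35, 4.90 and 6.51 CPM in PdB, against 5.10, 6.03 and 6.54 CPM in DMSO (-0.16 ± 0.16, adjusted p = 0.38). H2BC5 had 4.27, 3.23 and 5.76 CPM in PdB, against 3.54, 2.57 and 4.64 CPM in DMSO (0.30 ± 0.23, adjusted p = 0.26). Both pairs of groups overlapped. The other tested members ran from H4C16 at -1.42 ± 0.75 to H2AC14 at 0.81 ± 0.70, with no call.

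**Figure D2:**
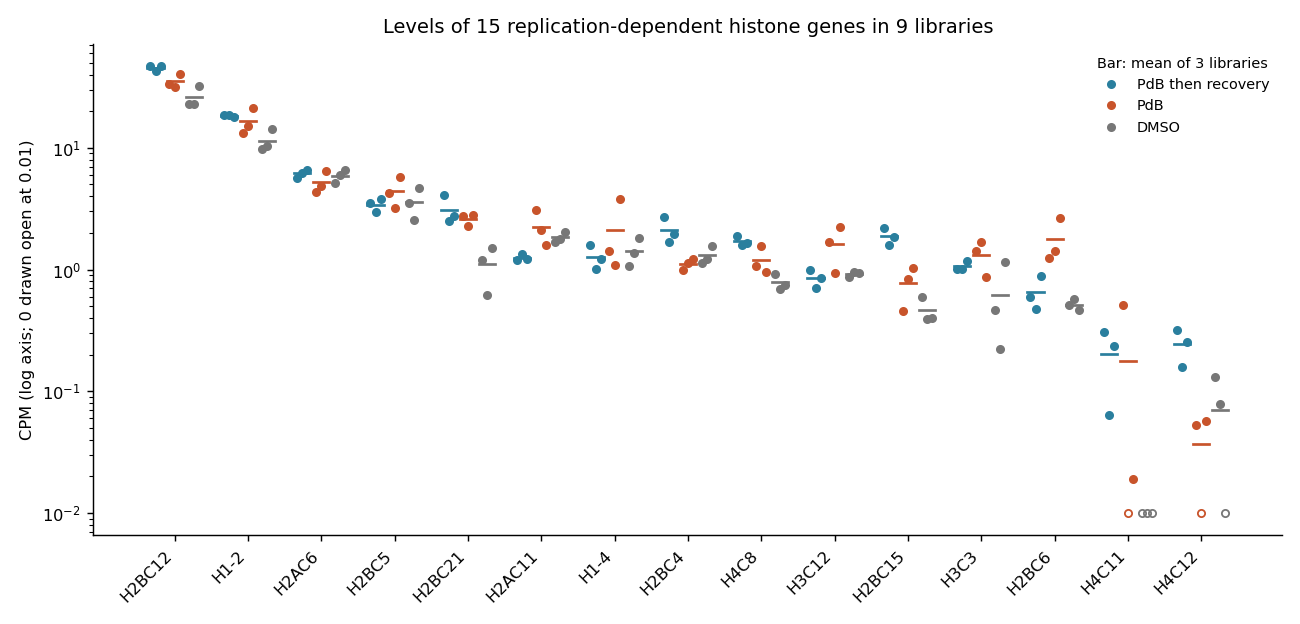
CPM (vertical log axis, open circles at 0.01 are 0) of the 15 members that were called in any comparison or are among the 8 most abundant, ordered by mean level, with a point per library and a bar at the group mean. For H2BC12 the recovery libraries lie between 42.9 and 46.7 CPM, above every PdB and DMSO library, while for H2BC6 the PdB libraries lie highest, between 1.24 and 2.67 CPM.

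Recovery was set against DMSO to see which histone genes still stood apart 24 h later. Again 7 members rose and 0 fell, a share of 22.6%, beside 61.2% of all genes called, 30.7% up and 30.5% down. They were H1-2, H2BC12, H2BC21, H2BC4, H2BC15, H4C8 and H4C11. The members with an unadjusted p under 0.05 numbered 9, the other two being H3C10 at 1.07 ± 0.47 (adjusted p = 0.057) and H3C1 at 1.97 ± 0.88 (adjusted p = 0.061). DESeq2 called 9 up and 0 down. The median change was 0.29 over the tested members and 0.03 over all genes, and without the third DMSO library that of the members was 0.78. By family, 1 of 2 H1, 0 of 8 H2A, 4 of 9 H2B, 0 of 5 H3 and 2 of 7 H4 genes rose. This comparison and the one of PdB share their DMSO libraries, so their values are given side by side and not as independent results.

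H1-2 had 18.7, 18.5 and 18.0 CPM at recovery, against 9.81, 10.4 and 14.2 CPM in DMSO, a change of 0.68 ± 0.15 (adjusted p = 0.00075). H2BC12 had 46.7, 42.9 and 46.6 CPM at recovery, against 23.1, 23.1 and 31.9 CPM in DMSO, a change of 0.80 ± 0.11 (adjusted p = 4.9e-06). H2BC21 had 4.07, 2.49 and 2.74 CPM at recovery, against 1.20, 0.618 and 1.5 CPM in DMSO (1.48 ± 0.29, adjusted p = 0.00026). In all 3 genes every recovery library stood above every DMSO library, and the calls were made under all 18 alternatives.

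Of the other members that rose at recovery, H2BC15, H4C8 and H2BC4 had no call in PdB, whereas H4C11 had one. H2BC15 had 2.18, 1.58 and 1.85 CPM at recovery, against 0.600, 0.396 and 0.404 CPM in DMSO, a change of 2.0 ± 0.37 (adjusted p = 0.00013). Its annotated exons overlap those of its neighbours H2AC15 and H2AC16, which had 112 and 2 counts over all libraries, against 581 for H2BC15. H4C8, a histone H4 gene beside the stretch that held 5 counts, had 1.88, 1.59 and 1.66 CPM at recovery, against 0.923, 0.698 and 0.751 CPM in DMSO (1.11 ± 0.30, adjusted p = 0.0040). Both genes' recovery libraries stood above every DMSO library. In PdB, H2BC15 had 0.460, 0.835 and 1.04 CPM (0.73 ± 0.38 against DMSO, adjusted p = 0.095) and H4C8 had 1.08, 1.56 and 0.961 CPM (0.60 ± 0.31, adjusted p = 0.090). DESeq2 and upper-quartile scaling did call both genes in PdB. H2BC4 had 2.68, 1.69 and 1.97 CPM at recovery, against 1.14, 1.22 and 1.57 CPM in DMSO (0.69 ± 0.27, adjusted p = 0.038), a call lost in 6 of 18 alternatives, among them without the first or the third recovery library and without the first or second DMSO library. H4C11 had 19, 4 and 16 counts at recovery and 0 in DMSO (adjusted p = 0.0098). With 0 counts in DMSO, H4C11 passed the filter through PdB and recovery libraries only, so that p-value is a description only. Read against a floor of 3 counts per DMSO library it was at least 4.5-fold higher at recovery, and it shares its coding sequence with H4C12. H2AC6 had 5.66, 6.22 and 6.61 CPM at recovery, against 5.10, 6.03 and 6.54 CPM in DMSO (0.066 ± 0.16, adjusted p = 0.75). H2BC5 had 3.53, 2.95 and 3.78 CPM at recovery, against 3.54, 2.57 and 4.64 CPM in DMSO (-0.068 ± 0.23, adjusted p = 0.82). Both overlapped with DMSO and neither passed the test. Among the other members described above, H1-4 had 1.60, 1.02 and 1.22 CPM at recovery (-0.15 ± 0.39 against DMSO, adjusted p = 0.76) and H3C3 had 1.01, 1.02 and 1.17 CPM (0.79 ± 0.46, adjusted p = 0.15), without a call.

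**Figure D3:**
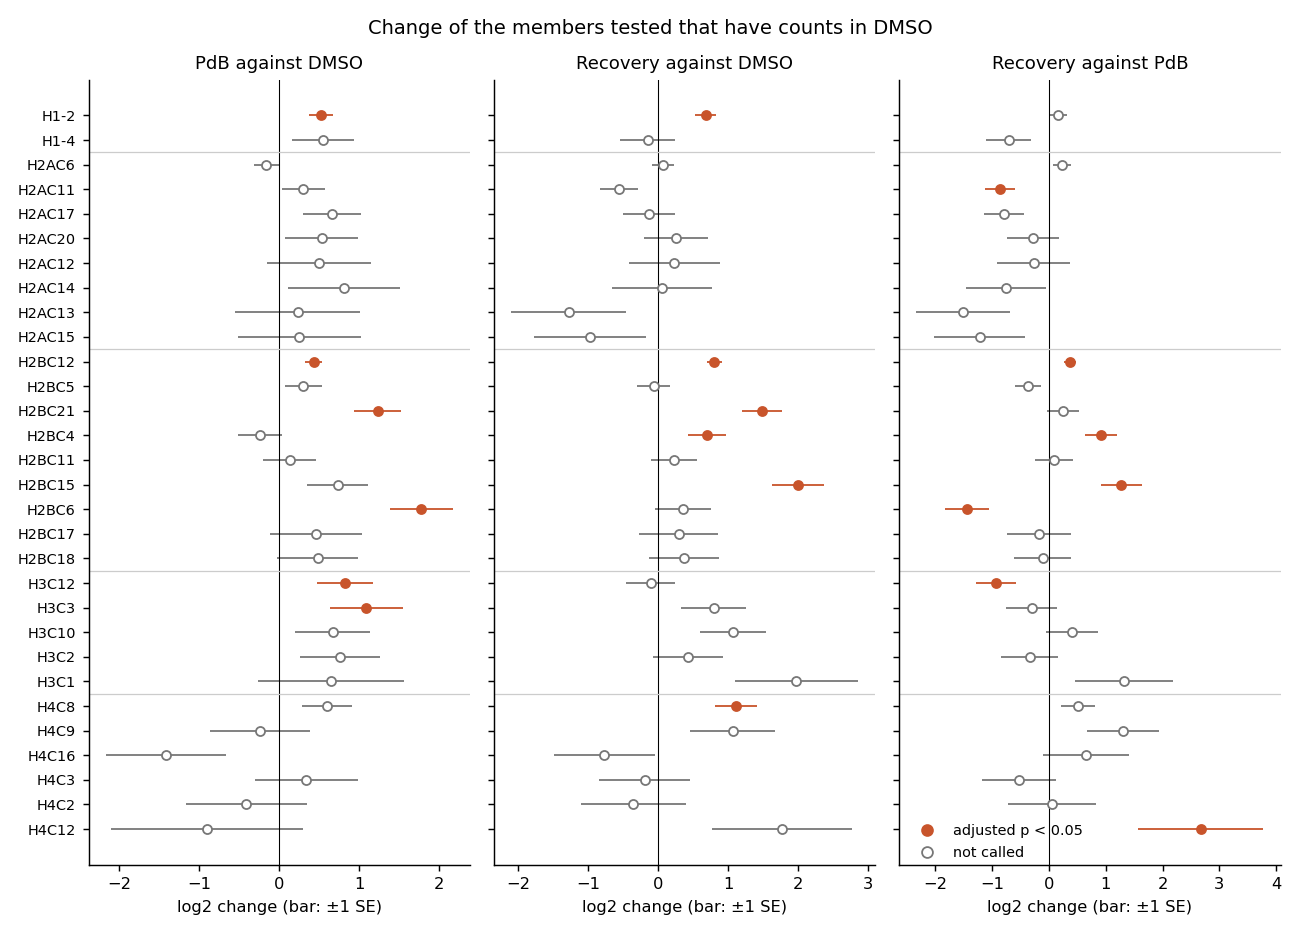
Log2 change with its SE (horizontal axis) of the 30 tested members that have counts in DMSO, in the 3 comparisons, with lines between the families H1, H2A, H2B, H3 and H4 and filled red points for adjusted p under 0.05. The H2A genes held 0 calls against DMSO in either comparison, whereas H2BC21 was called in both, at 1.23 in PdB and 1.48 at recovery.

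The comparison of recovery with PdB tested directly which members moved after removal of the drug. There 4 rose and 3 fell of 31, beside 66.1% of all genes called, 34.6% up and 31.5% down. With library totals 8 rose and 1 fell, and of all called genes 64.5% were up instead of 52.3%, so the split of this comparison hung on the scaling. Without the first recovery library 2 rose, without the first PdB library 1 fell and without the second PdB library 6 fell. H2BC12 rose by 0.37 ± 0.11 (adjusted p = 0.0064) and H2BC15 by 1.27 ± 0.36 (adjusted p = 0.0048). H2BC4 had 2.68, 1.69 and 1.97 CPM at recovery, against 0.991, 1.14 and 1.21 CPM in PdB (0.92 ± 0.28, adjusted p = 0.0073). In these 3 genes the groups did not overlap, and H2BC4 lost its call without the first recovery library (adjusted p = 0.058). H4C12 had 0.321, 0.159 and 0.252 CPM at recovery, against 0.0531, 0 and 0.0576 CPM in PdB (adjusted p = 0.044), a call lost in 11 of 17 alternatives, among them leaving out any library but the third DMSO one. H4C12 passed the filter through the recovery libraries, in which it is high, so its p-value is a description only. With every gene unfiltered the edgeR adjusted p was 0.071.

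The members that fell after removal of the drug were from 3 families. H2BC6 had 0.593, 0.478 and 0.889 CPM at recovery, against 1.24, 1.42 and 2.67 CPM in PdB (-1.44 ± 0.39, adjusted p = 0.0033), and its recovery level did not pass the test against DMSO (0.35 ± 0.40, adjusted p = 0.48). H2AC11 had 1.19, 1.34 and 1.22 CPM at recovery, against 3.06, 2.13 and 1.58 CPM in PdB (-0.86 ± 0.27, adjusted p = 0.010). H3C12 had 0.994, 0.702 and 0.860 CPM at recovery, against 1.70, 0.941 and 2.23 CPM in PdB (-0.93 ± 0.35, adjusted p = 0.026). The groups were apart for H2BC6 and H2AC11 and overlapped for H3C12, and the calls of H2AC11 and H3C12 ended with library totals (adjusted p = 0.065 for H2AC11 and 0.11 for H3C12) and without the first PdB library. That of H3C12 also ended without the third PdB library and without the second or the third recovery library. H2BC6 and H2BC15, both H2B genes, thus changed in opposite directions between the same libraries. H1-2 and H2BC21 did not pass the test against PdB, at 0.16 ± 0.15 (adjusted p = 0.37) and 0.25 ± 0.28 (adjusted p = 0.46), which does not show that they were equal. H1-2 was called up with library totals (0.42, adjusted p = 0.030) and without the third PdB library (0.38, adjusted p = 0.014).

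The genes that act on histone genes and their mRNAs are given by list. Of 7 genes of histone gene transcription, 3 rose and 4 fell in PdB and 2 rose and 1 fell at recovery, all against DMSO. NPAT had 50.4 ± 1.5 CPM at recovery, 44.5 ± 2.59 CPM in PdB and 53.8 ± 1.01 CPM in DMSO, a change of -0.28 ± 0.061 in PdB (adjusted p = 0.00058) that upper-quartile scaling ended (adjusted p = 0.069). CASP8AP2, known as FLASH, which joins transcription and the cutting of histone mRNA at the histone locus body, had 50.9 ± 1.03 CPM at recovery, 84.7 ± 4.13 CPM in PdB and 32.5 ± 1.78 CPM in DMSO. Its changes were 1.38 ± 0.062 in PdB (adjusted p = 5.0e-13) and 0.65 ± 0.062 at recovery (adjusted p = 3.6e-08). HINFP, an activator of H4 genes, rose by 1.33 ± 0.072 in PdB (adjusted p = 7.5e-12) and by 0.68 ± 0.072 at recovery (adjusted p = 1.6e-07). From PdB to recovery HINFP fell (-0.65 ± 0.071, adjusted p = 1.6e-07). CCNE2, a cyclin whose kinase CDK2 activates NPAT, had 40.1 ± 1.69 CPM at recovery, 11.5 ± 1.89 CPM in PdB and 42.9 ± 0.667 CPM in DMSO, and CCNE1 had 17.6 ± 0.640 CPM at recovery, 12.4 ± 1.65 CPM in PdB and 16.7 ± 1.60 CPM in DMSO. Both fell in PdB and neither passed the test at recovery, while CDK2 fell in both, with changes of -1.10 ± 0.073 in PdB and -0.54 ± 0.072 at recovery.

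The gene of the stem-loop binding protein fell under the drug and did not pass the test after its removal. SLBP had 127 ± 0.715 CPM at recovery, 54.8 ± 1.04 CPM in PdB and 131 ± 2.03 CPM in DMSO, a change of -1.25 ± 0.048 in PdB (adjusted p = 5.4e-14) and of -0.041 ± 0.047 at recovery (adjusted p = 0.47). The summed histone level was above the DMSO mean in both states. Of 17 genes of 3′ end processing, 8 rose and 8 fell in PdB and 7 rose and 6 fell at recovery. LSM10, a protein of the U7 snRNP, fell in both, with changes of -1.90 ± 0.10 in PdB (adjusted p = 4.9e-12) and -0.80 ± 0.095 at recovery (adjusted p = 6.7e-07). Its partner LSM11 changed by -0.36 ± 0.10 in PdB (adjusted p = 0.0040) and 0.25 ± 0.099 at recovery (adjusted p = 0.036). Upper-quartile scaling ended its call in PdB (adjusted p = 0.07), and 7 alternatives ended that at recovery, among them leaving out any DMSO library or the first or the second recovery library. ZNF473, a zinc finger protein that associates with U7, rose to 142 ± 6.38 CPM at recovery and 125 ± 12 CPM in PdB, against 33.9 ± 1.40 CPM in DMSO. NCBP2, a subunit of the cap-binding complex, rose by 1.93 ± 0.050 in PdB and 1.19 ± 0.049 at recovery. RNU7-1, the U7 RNA itself, named here after its values were seen, had 2.53 ± 0.119 CPM at recovery, 1.20 ± 0.676 CPM in PdB and 0.686 ± 0.232 CPM in DMSO. It rose at recovery (1.88 ± 0.37, adjusted p = 0.00026) and did not pass the test in PdB (0.81 ± 0.38, adjusted p = 0.067). In PdB it did pass with upper-quartile scaling, with DESeq2 (adjusted p = 0.033 in each) and without the first PdB library (adjusted p = 0.0074). The same held with RLE factors (adjusted p = 0.041) and a minimum mean of 50 counts (adjusted p = 0.035).

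Of 11 genes of histone mRNA translation and decay, 1 rose and 8 fell in PdB and 4 rose and 5 fell at recovery. The PdB rise was that of MIF4GD, which links SLBP to translation, by 0.34 ± 0.11 (adjusted p = 0.010), or an adjusted p of 0.26 with library totals and 0.074 without the first PdB library. CTIF, a translation factor that acts with the cap-binding complex, fell most, with changes of -1.83 ± 0.12 in PdB and -2.15 ± 0.12 at recovery. ERI1, the exonuclease that trims the histone stem-loop, fell in both, with changes of -0.69 ± 0.067 in PdB and -0.25 ± 0.066 at recovery. UPF1, a helicase needed for histone mRNA decay, had 333 ± 4.58 CPM at recovery, 209 ± 15.5 CPM in PdB and 214 ± 3.93 CPM in DMSO, and LSM1, of the ring that binds the tails of mRNAs under decay, had 38.9 ± 2.06, 19.5 ± 0.606 and 18.6 ± 1.02 CPM in that order of groups. Both rose at recovery, by 0.64 ± 0.052 and 1.06 ± 0.076. In PdB neither was called, at -0.032 ± 0.052 for UPF1 and 0.066 ± 0.077 for LSM1. The scaling decided this for UPF1, which was up with upper-quartile scaling (0.12, adjusted p = 0.043) and down with library totals (adjusted p = 0.00021). LSM1 was also up in PdB with upper-quartile scaling (0.22, adjusted p = 0.018) and with a minimum mean of 50 counts (0.19, adjusted p = 0.031).

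Histone chaperones, which carry new histones to DNA, mostly fell. Of 21, 3 rose and 17 fell in PdB, and 2 rose and 16 fell at recovery. NASP, which holds stores of H3 and H4, had 134 ± 5.94 CPM at recovery, 61.1 ± 0.696 CPM in PdB and 193 ± 6.47 CPM in DMSO. ASF1B, which hands H3 and H4 to other chaperones, changed by -2.24 ± 0.077 in PdB and -1.26 ± 0.073 at recovery. Its paralogue ASF1A moved the other way in PdB, to 42.9 ± 4.23 CPM against 14.9 ± 1.56 CPM in DMSO (1.53 ± 0.096, adjusted p = 6.1e-11). DAXX, a chaperone of the variant H3.3, rose at recovery by 0.89 ± 0.049. It fell in PdB (-0.17 ± 0.049, adjusted p = 0.0056), a call lost with RLE factors (adjusted p = 0.22), upper-quartile scaling (adjusted p = 0.77) and DESeq2 (adjusted p = 0.19). The call was also lost with a minimum mean of 50 counts (adjusted p = 0.40) and with only the 6 libraries compared (adjusted p = 0.18).

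Histone variants outside the replication-dependent class, which can be made from polyadenylated mRNAs, stood far above the members in these libraries. The 12 on the list summed to 1190.0 ± 26.5 CPM at recovery, 1920.0 ± 98.7 CPM in PdB and 2000.0 ± 32.1 CPM in DMSO. Of the 10 tested, 3 rose and 6 fell in PdB, and 1 rose and 7 fell at recovery. H2AX, the H2A variant phosphorylated at DNA breaks, had 146 ± 1.54 CPM at recovery, 609 ± 49.8 CPM in PdB and 294 ± 4.36 CPM in DMSO, so it rose in PdB (1.05 ± 0.053, adjusted p = 2.6e-12) and fell at recovery (-1.01 ± 0.053, adjusted p = 1.1e-11). H1-10, a linker histone variant, changed by -0.43 ± 0.063 in PdB and -0.53 ± 0.063 at recovery. H3-3A, encoding H3.3, rose in PdB by 0.61 ± 0.065, and H3-3B, encoding the same protein, changed by -0.41 ± 0.050. H2AZ1 did not pass the test in PdB (0.040 ± 0.053) and fell at recovery (-0.52 ± 0.054). In PdB it was down with library totals (-0.16, adjusted p = 0.0081). It was up there with upper-quartile scaling (adjusted p = 0.0029), RLE factors (adjusted p = 0.038), a minimum mean of 50 counts (adjusted p = 0.011) and DESeq2 (adjusted p = 0.032). The rise at recovery was that of CENPA, the H3 variant of centromeres, by 0.33 ± 0.073, a gene that fell in PdB (-0.39 ± 0.074).

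Genes of S phase mostly fell in the groups in which the histone sums were higher. The 22 S phase genes summed to 2120.0 ± 43.6 CPM at recovery, 1900.0 ± 41.6 CPM in PdB and 3620.0 ± 66.6 CPM in DMSO. In PdB 1 rose and 20 fell, and at recovery 1 rose and 19 fell. PCNA, the clamp of the replication fork, had 124 ± 3.37 CPM at recovery, 18.2 ± 1.26 CPM in PdB and 156 ± 4.96 CPM in DMSO. POLA2, of the polymerase that starts DNA strands, changed by -3.66 ± 0.15 in PdB, and CDC45, a helicase subunit, by -1.73 ± 0.083 at recovery. CDT1, which licenses origins, rose at recovery by 0.42 ± 0.073 and fell in PdB (-0.89 ± 0.075). TK1 was the gene that rose in PdB, by 0.15 ± 0.046, a call lost without the first DMSO library (adjusted p = 0.074), and its direction turned with library totals (-0.051).

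Summed RNAs that normally have no poly(A) tail were higher than in DMSO in both groups, as were the summed members on average. The sum of these RNAs was lower at recovery than in PdB. The mean sum of the members was not, though for the members the recovery and PdB libraries overlapped. The 18 on the list summed to 15, 16.4 and 15.9 CPM at recovery, to 19.7, 22.1 and 23.8 CPM in PdB and to 7.13, 8.17 and 10.8 CPM in DMSO, with no overlap between groups. Of the 8 tested, 5 rose and 0 fell in PdB (5 with an unadjusted p under 0.05), and 4 rose and 0 fell at recovery (5 with an unadjusted p under 0.05). From PdB to recovery the single genes did not move alike: 1 of the 8 rose (RNU2-2P, 2.65 ± 0.47) and 2 fell (RN7SL1, -0.76 ± 0.17, and RPPH1, -1.43 ± 0.33). RPPH1, the RNA of ribonuclease P, rose by 2.87 ± 0.36 in PdB (adjusted p = 9.5e-07). RNU2-2P, a U2 snRNA gene, rose by 4.5 ± 0.54 at recovery (adjusted p = 8e-07). RN7SK, which holds the elongation factor P-TEFb, had 1.22 ± 0.177 CPM at recovery, 1.95 ± 0.834 CPM in PdB and 0.871 ± 0.348 CPM in DMSO (1.16 ± 0.37 in PdB, adjusted p = 0.0092, or 0.061 without the third PdB library). The part of untailed RNA carried into the libraries in the histone values was not tested.

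Genes without introns that are not members are given beside the members. The members tested are not all intronless: of the 29 found in GENCODE 29, 10 have a transcript with more than 1 exon. Among these are H2BC4, H2BC6, H2BC15, H3C12 and H4C8, which were called above. Of 254 tested intronless protein-coding genes that are not members, 170 rose and 20 fell in PdB, with a median change of 1.13, beside 7 up and 0 down of 31 members with a median of 0.50. At recovery 114 rose and 47 fell, with a median of 0.29, the same as that of the members. Against PdB, recovery showed 24 up and 150 down among them, with a median of -0.68, and the members a median of -0.11. The intronless genes had a median of 586 counts per library, the members 44.7, and the difference between the lists was not tested.

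**Figure D4:**
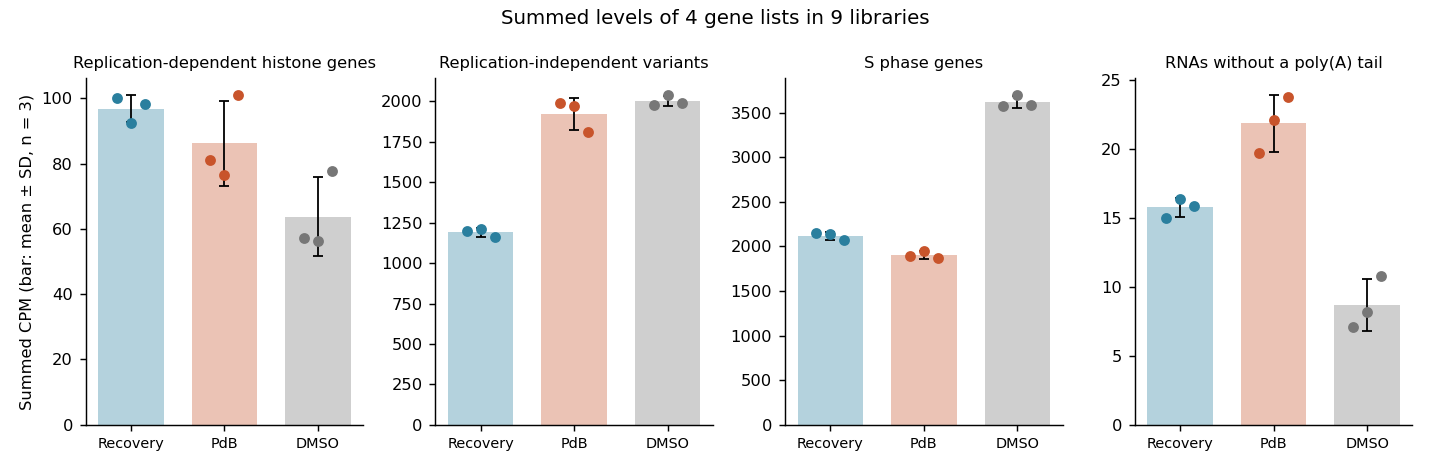
Summed CPM (vertical axes from 0, each panel on its own scale) of the 67 members, 12 replication-independent variants, 22 S phase genes and 18 RNAs without a poly(A) tail, with a point per library and bars at the mean ± SD. The members average 96.8, 86.2 and 63.7 CPM at recovery, in PdB and in DMSO, while the S phase genes average 2120.0, 1900.0 and 3620.0 CPM.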

How the data were processed

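The authors deposited read counts per gene for 9 libraries of polyadenylated RNA, whole numbers with a different total in each library, so not normalised. The submitters' processing notes name hg38, featureCounts 2.0.3, STAR 2.7.9a, fastp 0.23.2, DESeq2 1.30.0 and Picard, without their roles. Annotation release, strand and treatment of multi-mapped reads: not given in the sources used here. Symbols were matched for 60507 IDs. Structures came from GENCODE 29 (65 members found, 22 with the same versioned ID) and promoters from RefSeq. Counts were filtered with filterByExpr, TMM-scaled and tested two-sided with edgeR 4.0.16 (R 4.3.3) in 1 fit of all 9 libraries (common biological coefficient of variation 0.111). The members, the lists, the tests and the alternatives were chosen with earlier results of these data known. Values per library are given for members called in any comparison and the 8 with the highest mean CPM. For other lists the genes named are the largest called rise and fall against DMSO and 18 genes chosen for their role; RNU7-1 was added, and 1 gene under this rule is not reported here. Alternatives were RLE factors, upper-quartile factors, library totals, every gene unfiltered, a minimum mean of 50 counts, DESeq2 1.42.0, FDR 0.01, fits of 6 libraries, a block for replicate number and leaving out each library. Sums on library totals or without a library were added after the data were seen. Chi-square per degree of freedom within groups was 4.87 to 24.1, so no library was taken for a second deposit of another. The floor of 3 counts was 0.0449 CPM on average in DMSO and covers only counting error, as reads lacking molecular identifiers can be copies of 1 molecule. On simulated data with 200 of 20812 genes changed, the fit was tested before use. The changed genes were not taken from those with the lowest counts, and all genes had the same spread. The simulation therefore does not cover members with few counts or a change of most genes. Figures used Python 3.11.15 and matplotlib 3.10.9.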

Additional observations from a re-analysis of the deposited data

How the results depend on the processing

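In PdB against DMSO, library totals left 3 members up and FDR 0.01 left 4, and leaving out a library gave 5 to 7 up and 0 to 1 down (H4C16, without the third PdB library). The median change of the members was 0.65 with upper-quartile factors, 0.30 with library totals, 0.67 when the minimum mean was 50 counts and 0.46 to 0.72 with a library left out. In recovery against DMSO the median was 0.37, 0.36 and 0.39 in those settings, 0.34 with DESeq2 and 0.28 to 0.78 with a library left out, highest without the third DMSO library. Members called down there numbered 1 (H2AC11) with only the 6 libraries compared and 0 to 1 with a library left out (H2AC13, without the first DMSO library). In recovery against PdB, library totals gave 8 up and 1 down with a median of 0.16, FDR 0.01 gave 1 down, and leaving out a library gave 2 to 5 up and 1 to 6 down (1 without the first PdB library, 6 without the second, 2 up without the first recovery library). The summed level at recovery was 105 with library totals, and without H2BC12 the sums were 51.5, 51.2 and 37.6 CPM at recovery, in PdB and in DMSO. Among values with a call in either fit, directions turned for UPF1 (0.12 in PdB, upper-quartile factors), H2AZ1 (-0.16 in PdB), TK1 (-0.051 in PdB) and H1-10 (0.17, recovery against PdB), the last 3 with library totals. The causes were not tested. Same-numbered libraries were not paired by the labels and barely deviated together (correlations of -0.00323 to 0.048, the own number matching best in 13 of 18 cases). With the replicate number as a block, 14628, 12922 and 13871 of all genes were called in the 3 comparisons, against 14599, 12746 and 13767 without it. Then 6 members rose and 0 fell in PdB, 7 and 0 at recovery and 3 and 3 between recovery and PdB, H3C12 in PdB and H4C12 in the last comparison losing their calls. Of 2957 values of single genes under alternatives, 2807 stayed on their side of the threshold, the called ones in the same direction. Another 102 lost a call, 44 gained one and 4 turned with a call in at least one of the fits compared. Directions of values without a call in either fit were not compared.
The tested members had a median of 44.7 counts per library, so small changes of the low members were not detectable at this depth, and 36 members could not be tested. Counts of near-identical or overlapping copies are uncertain, strand use is not given, and per-length levels exist for few members.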

Other observations

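Rows close to the rule but outside it also held histone counts. H2BC20P, a pseudogene, held 1649 counts over the 9 libraries and averaged 3.75 CPM at recovery, 2.42 CPM in PdB and 2.67 CPM in DMSO, with no call in PdB (log2 change -0.15, edgeR adjusted p = 0.60) or at recovery (0.49, adjusted p = 0.075). H2BC19P held 1008 counts and averaged 2.55 CPM at recovery, 0.975 CPM in PdB and 1.79 CPM in DMSO, and it fell in PdB (-0.88, adjusted p = 0.015), where no member did. By counts, H2BC20P would stand between H2BC5 and H2BC21, and H2BC19P between H2BC21 and H2AC11. HIST2H2AA3 and HIST2H2AA4, older symbols of H2AC18 and H2AC19 under other IDs, held 0 and 5 counts.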
